A study of Rattus norvegicus with 18 samples.

Results

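Rat dorsal root ganglia, the clusters of sensory neuron cell bodies beside the spinal cord, were divided by their own level of Atf3, the transcription factor gene most used as a marker of sensory neurons with a damaged axon. A library was called high-Atf3 when Atf3 reached 20 CPM or more (reads of the gene per 1000000 counted reads of the library) and low-Atf3 when it lay under 20 CPM, whatever the label of the library said. The rule gave 7 high-Atf3 and 11 low-Atf3 libraries out of 18. Because a measured value made the division, every difference between the 2 kinds of library below is a description and was not tested. Tests were made only between the labelled groups.

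The study behind the libraries made a rat model of neuropathic pain and treated animals with Shentong Zhuyu decoction, a traditional preparation of herbs and animal products, and measured messenger RNA of the ganglia by sequencing. The labels name 6 groups of 3 libraries: NPP_herb and NPP_solvent (disease state NPP, taken here as the neuropathic pain model, with herb or with solvent), Sham_herb and Sham_solvent (disease state Sham with herb or with solvent), Ctrl_solvent (control with solvent) and Ctrl (control, with neither herb nor solvent named). Herb is taken to be the decoction. The sources used here do not give strain, age, ganglion level, dose, time of sampling or the way the model was made. They also do not say whether each library is a different animal, so a p-value here reflects the spread among libraries, part of which may be technical. In a bulk sample a lower level can mean fewer cells of a type or less RNA per cell, and these cannot be told apart.

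Injury of a peripheral axon switches a sensory neuron from transmission to growth. The cell body induces transcription factors such as Atf3, Jun and Sox11, growth-associated proteins such as Gap43 and Sprr1a, and neuropeptides such as galanin and neuropeptide Y, while many ion channel genes are turned down. In uninjured ganglia Atf3, Npy and Sprr1a are near silent in neurons, which makes them sensitive markers of even a small number of injured cells.

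Depth ran from 18334197 to 30609481 counted reads in high-Atf3 libraries and from 18170925 to 50289652 in low-Atf3 libraries. Mitochondrial genes took 8.83% to 11.5% of reads in high-Atf3 libraries and 8.01% to 11.3% in low-Atf3 libraries, and hemoglobin genes took 0.00201% to 0.0825% and 0.00233% to 0.0775% in the same order. The slope on gene length of each library's deviation from the mean log2 level, which RNA quality can move, ran from -0.08 to 0.06 (per doubling of length) in high-Atf3 libraries and from -0.16 to 0.12 in low-Atf3 libraries, so the ranges of all these measures overlapped. Pan-neuronal genes such as Prph, which encodes the filament peripherin, a check of the labelled tissue, summed to 11270 to 14023 CPM over 13 genes in high-Atf3 libraries and 11237 to 14373 CPM in low-Atf3 libraries. Ctrl replicates 2 and 3, both low-Atf3, had 1 and 0 reads of the Y-linked gene Eif2s3y, against 2180 reads or more in every high-Atf3 library. Both are unlike the other 16 libraries in a way that their labels do not show.

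Atf3 itself (chromosome 13 of mRatBN7.2) lay at 29.3, 54.5 and 105 CPM (lowest, median and highest) in the high-Atf3 libraries, against 9.37, 11 and 16.2 CPM in the low-Atf3 libraries. These values rest on 872 to 2221 reads in high-Atf3 libraries and 198 to 732 reads in low-Atf3 libraries. The library just above the threshold was Sham_solvent replicate 3 at 29.3 CPM and the one just below it was Ctrl_solvent replicate 1 at 16.2 CPM. No library lay between these values.

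**Figure D1:**
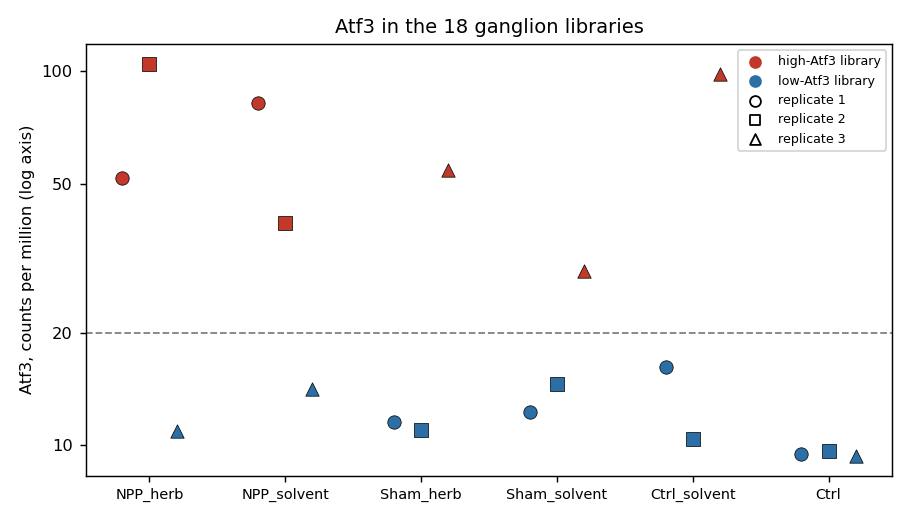
Atf3 in CPM on a log axis for each of the 18 libraries by labelled group, with the marker shape giving the replicate number, the colour giving high-Atf3 or low-Atf3, and the dashed line at 20 CPM. Replicates 1 and 2 of both NPP groups lie above the line and replicate 3 of both lies below it, while Sham_herb, Sham_solvent and Ctrl_solvent have replicate 3 alone above it.

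The division ran across the labels. In NPP_herb replicates 1 to 3 Atf3 was 51.7, 105 and 10.9 CPM, and in NPP_solvent 82.2, 39.2 and 14.2 CPM. Sham_herb had 11.5, 11 and 54.5 CPM, Sham_solvent 12.3, 14.6 and 29.3 CPM, and Ctrl_solvent 16.2, 10.4 and 98.4 CPM. Ctrl, at 9.47, 9.67 and 9.37 CPM, was the only group with no high-Atf3 library. Of the libraries numbered 1 or 2, all 4 of the NPP groups were high-Atf3 and all 8 of the Sham and Ctrl groups were low-Atf3. Of those numbered 3, both NPP libraries were low-Atf3 and 3 of the 4 others were high-Atf3. Unlike replicates 1 and 2 of the same group, replicate 3 of Ctrl_solvent, of Sham_herb and of Sham_solvent was thus high-Atf3. Replicate 3 of NPP_herb and of NPP_solvent was low-Atf3, also unlike replicates 1 and 2 of the same group. Whether labels or animals of the libraries numbered 3 were exchanged was not tested, and the labels were kept as given.

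Every high-Atf3 library lay above every low-Atf3 library in 21 genes of 17043 with enough reads to be tested, Atf3 among them (0.123% of those genes), and every high-Atf3 library lay below every low-Atf3 library in 0 genes (0%). Of the 21 genes, 16 have a gene symbol and 5 are uncharacterized loci, and 12 of the 21 had a mean of at least 1 CPM and a symbol. The first count was 35 without Sham_solvent replicate 3, the high-Atf3 library nearest the threshold. The count of lower genes was 8 without Sham_solvent replicate 1, 3 without Sham_herb replicate 3, and 0 or 1 without any other single library. Without the 2 libraries lacking Y-linked reads the counts were 25 and 0. With the replicate 3 libraries of all groups left out, which leaves 4 high-Atf3 against 8 low-Atf3 libraries, they were 52 and 30. Leaving libraries out can only add separated genes.

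The separated genes can be grouped by what they do. Npy and Gal are injury-linked neuropeptides. Gap43, Sprr1a, Csrp3 and Flnc are growth or cytoskeleton genes. Gadd45a and Il24 belong to stress and cytokine responses, and Cckbr is a peptide receptor. RefSeq promoters (build GRCr8, 250 bases before to 50 after the gene start) were at hand for 14 of the 21 genes. The sequences of both neuropeptide genes, on which most of the results turn, and of a pair of genes that hold the core letters of the AP-1 element follow, written 5′ to 3′ on the strand of the gene, with capitals marking the AP-1 letters TGACTCA or their reverse complement TGAGTCA.
Npy, chr4:80211861-80212160, plus strand: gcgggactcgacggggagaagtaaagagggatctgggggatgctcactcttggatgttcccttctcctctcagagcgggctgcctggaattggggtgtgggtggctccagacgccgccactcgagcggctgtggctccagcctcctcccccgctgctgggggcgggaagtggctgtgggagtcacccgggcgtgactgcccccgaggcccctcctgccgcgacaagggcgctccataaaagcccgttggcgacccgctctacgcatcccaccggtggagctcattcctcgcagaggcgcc
Gal, chr1:210084523-210084822, minus strand: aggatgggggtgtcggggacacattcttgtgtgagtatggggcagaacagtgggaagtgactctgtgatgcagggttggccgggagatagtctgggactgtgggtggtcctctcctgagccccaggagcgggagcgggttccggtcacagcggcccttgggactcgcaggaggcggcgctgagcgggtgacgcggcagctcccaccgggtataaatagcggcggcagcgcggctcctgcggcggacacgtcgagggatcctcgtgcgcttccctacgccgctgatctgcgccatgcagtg
Sprr1a, chr2:180752576-180752875, minus strand: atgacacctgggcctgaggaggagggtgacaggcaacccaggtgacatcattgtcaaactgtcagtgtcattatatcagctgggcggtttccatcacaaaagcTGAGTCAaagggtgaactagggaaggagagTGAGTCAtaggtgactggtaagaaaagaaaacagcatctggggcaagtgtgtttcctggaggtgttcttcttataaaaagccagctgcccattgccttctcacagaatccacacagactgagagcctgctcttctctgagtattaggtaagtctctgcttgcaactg
Pde6b, chr14:1511386-1511685, minus strand: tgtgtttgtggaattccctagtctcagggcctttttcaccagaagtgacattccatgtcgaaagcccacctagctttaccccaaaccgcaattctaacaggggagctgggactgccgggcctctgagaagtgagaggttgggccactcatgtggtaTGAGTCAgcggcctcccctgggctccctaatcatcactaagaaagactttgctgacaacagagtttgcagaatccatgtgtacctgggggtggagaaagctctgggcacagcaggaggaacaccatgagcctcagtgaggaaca

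AP-1 is the element bound by Jun and by its partners, and Atf3 can pair with Jun. The letters TGACTCA, searched on both strands, were found in the promoters of 3 of the 14 matched genes (Sprr1a with copies that begin 147 and 117 bases before the start, Hpd at 135 and Pde6b at 94). Of all 33469 RefSeq promoters of the same length, 4.63% held them. The cyclic AMP response element TGACGTCA, which equals its own reverse complement, was found in 0 of the 14 and in 1.83% of all promoters. A match is a stretch of letters and was not tested as a binding site.

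Neuropeptide Y, a peptide transmitter that injured sensory neurons make, showed the widest gap. Npy (chromosome 4) was at 29.1, 112 and 204 CPM (lowest, median and highest) in high-Atf3 libraries, against 0.610, 1.78 and 3.22 CPM in low-Atf3 libraries. The lowest high-Atf3 library thus had several times the Npy of any low-Atf3 library, and the medians differed by 62.6-fold. Its order within the high-Atf3 libraries was nearly that of Atf3. From the highest down, Npy was at 204 CPM in Ctrl_solvent replicate 3, 168 in NPP_herb replicate 2, 119 in NPP_solvent replicate 1, 112 in Sham_herb replicate 3, 62.9 in NPP_herb replicate 1, 57.8 in NPP_solvent replicate 2 and 29.1 in Sham_solvent replicate 3. Per gene length, the median was 175 FPKM in high-Atf3 libraries and 2.81 FPKM in low-Atf3 libraries, so Npy stood above Atf3 (24.5 FPKM) in the first and below it (4.94 FPKM) in the second.

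Galanin, a neuropeptide that modulates pain signalling and neurite growth, was also separated by a gap. Gal (chromosome 1) was at 15.3, 29.2 and 74.7 CPM in high-Atf3 libraries, against 6.45, 8.05 and 12.8 CPM in low-Atf3 libraries. The difference of the medians was 1.80 on the log2(CPM + 0.5) scale, on which all differences between high-Atf3 and low-Atf3 libraries are given below. The smallest high value came from Sham_herb replicate 3, a library at the median of the 7 in Npy. Cckbr, a receptor for cholecystokinin, was at 1.15, 2.0 and 4.13 CPM in high-Atf3 libraries, against 0.307, 0.667 and 1.10 CPM in low-Atf3 libraries. It overlaps the uncharacterized LOC108349007 in the RefSeq gene table, and that locus is also among the 21. Since the strand setting of the counting is not given in the sources used here, reads of the 2 genes cannot be told apart with certainty.

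Growth and cytoskeleton genes differed from near silent to abundant. Csrp3, the muscle LIM protein, was at 3.20, 6.87 and 20.7 CPM in high-Atf3 libraries, against 0.0384, 0.160 and 0.771 CPM in low-Atf3 libraries. Sham_herb replicate 3 and NPP_solvent replicate 2 had the lowest high values, both still above every low-Atf3 library. Gap43, the growth-cone protein, was abundant everywhere, at 405, 421 and 622 CPM in high-Atf3 libraries, against 275, 342 and 402 CPM in low-Atf3 libraries, and its difference of 0.30 no longer separated them when libraries were scaled by TMM factors (which correct for a few genes taking a large share of reads). Flnc, the actin crosslinker filamin C, was at 7.11, 10.1 and 15.3 CPM in high-Atf3 libraries, against 3.84, 5.78 and 6.69 CPM in low-Atf3 libraries.

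Sprr1a, a small proline-rich protein of regenerating axons whose promoter is printed above with its AP-1 letters, was near silent outside the high-Atf3 libraries. It was at 0.369, 1.20 and 2.34 CPM in high-Atf3 libraries (11 to 43 reads), against 0 to 0.165 CPM in low-Atf3 libraries (0 to 6 reads), where 7 of 11 libraries had no read. A library with no read could still hold up to 3 reads, counting error only. Over the depths of all 11 low-Atf3 libraries, 3 reads equal 0.0597 to 0.165 CPM. The lower end belongs to Sham_solvent replicate 2, the deepest library, which had 2 reads of Sprr1a. Its level is low, but no high-Atf3 library lacked it. Stac2, an adaptor protein that binds calcium channels, was at 3.32, 10.5 and 25 CPM in high-Atf3 libraries, against 0.387, 1.07 and 2.64 CPM in low-Atf3 libraries, in the same order as Atf3 over all 7 high-Atf3 libraries.

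Stress and secreted genes were also among the 21. Gadd45a, a stress sensor of the DNA damage and growth arrest family, was at 50.5, 57.3 and 103 CPM in high-Atf3 libraries, against 32.9, 41.6 and 46.5 CPM in low-Atf3 libraries. It also kept the order of Atf3 over all 7 high-Atf3 libraries. It overlaps the locus LOC100912188 in the RefSeq gene table, which was tested and is not among the 21, so the limit given for Cckbr holds here too. Atf3 itself (with Garin4), Flnc, Crisp3 and Hpd also overlap other entries of that table, none of them among the genes tested. Their reads carry the same limit. Il24, a cytokine of the interleukin-10 family, was at 0.163, 0.413 and 2.01 CPM in high-Atf3 libraries (5 to 40 reads), against 0 to 0.110 CPM in low-Atf3 libraries (0 to 4 reads). Crisp3, a cysteine-rich secretory protein, was at 1.17, 3.27 and 14.3 CPM in high-Atf3 libraries, against 0 to 0.964 CPM in low-Atf3 libraries.

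The other separated genes have no settled role in sensory neurons. Cldn4, a tight junction claudin, was at 1.21, 2.06 and 7.87 CPM in high-Atf3 libraries, against 0 to 0.418 CPM in low-Atf3 libraries. Pde6b, a phosphodiesterase subunit known from photoreceptors, was at 2.72, 3.89 and 7.78 CPM in high-Atf3 libraries, against 0.781, 1.15 and 1.74 CPM in low-Atf3 libraries. Hpd, an enzyme of tyrosine breakdown, had 8 to 52 reads in high-Atf3 libraries and 0 to 3 reads in low-Atf3 libraries. Lce1f is a cornified envelope gene that lies on chromosome 2 as Sprr1a does. It had 1 to 19 reads in high-Atf3 libraries and 0 reads in all 11 low-Atf3 libraries, so only high-Atf3 libraries brought it past the low-count filter. Its lowest high value was 1 read (0.0336 CPM) in Sham_solvent replicate 3. That is less than 3 reads equal in any low-Atf3 library (0.0597 to 0.165 CPM). Lce1f is counted as separated, but counting error alone could undo this.

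**Figure D2:**
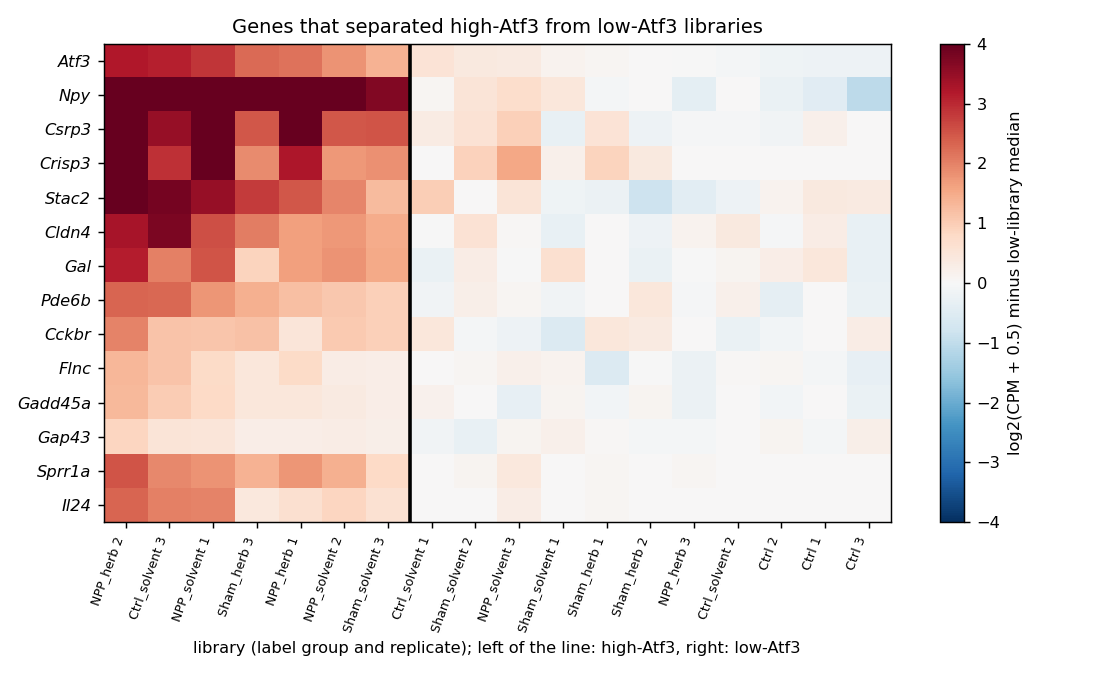
Log2(CPM + 0.5) minus the median of the low-Atf3 libraries for the 12 separated genes of at least 1 CPM with a symbol, and for Sprr1a and Il24, in the 18 libraries, ordered by falling Atf3 on each side of the black line, with colours capped at 4 and -4. The 7 high-Atf3 libraries on the left are red in every row, strongest for Npy and weakest for Gap43, which did not separate the libraries after TMM scaling.

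The genes whose pattern over the 18 libraries was most like that of Atf3 were looked up by rank correlation, given as a description without a test because Atf3 made the division and the libraries lie in 2 clusters. Among genes with a mean of at least 1 CPM and a symbol, the 5 most alike were Npy, Sema6a, Ptprh, Crisp3 and Gadd45a, with a Spearman rho of 0.96, 0.93, 0.91, 0.90 and 0.86. Sprr1a, under that level, had 0.88. Within the 7 high-Atf3 libraries alone, rho was 0.96 for Npy, 0.93 for Sema6a, 0.93 for Ptprh, 0.79 for Crisp3 and 1.00 for Gadd45a. Within the 11 low-Atf3 libraries it was 0.85, 0.72, 0.67, 0.60 and 0.40 in the same order. Sema6a, a transmembrane semaphorin of axon guidance, was at 28.3, 42.6 and 59.9 CPM in high-Atf3 libraries, against 20.1, 25.5 and 31.7 CPM in low-Atf3 libraries, with 1 library of each kind inside the range of the other. Ptprh, a receptor tyrosine phosphatase, was at 0.310, 1.58 and 6.91 CPM in high-Atf3 libraries, against 0.0271, 0.115 and 0.413 CPM in low-Atf3 libraries.

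**Figure D3:**
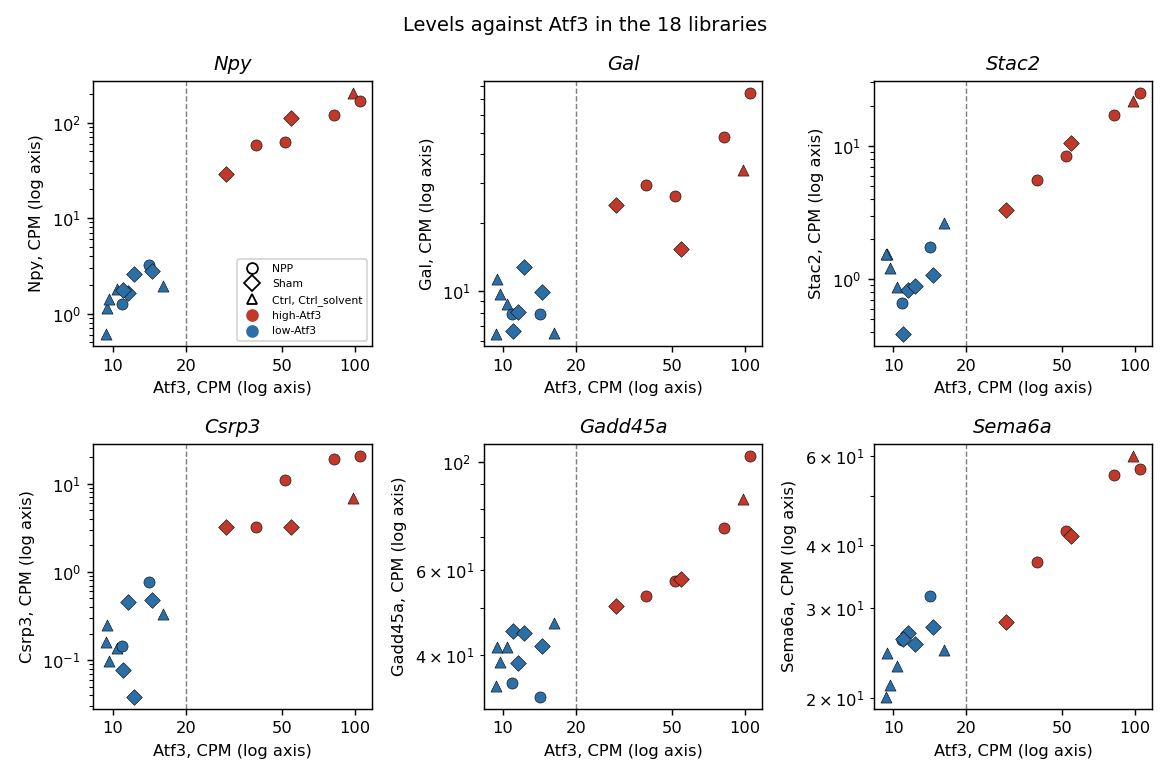
Levels in CPM of Npy, Gal, Stac2, Csrp3, Gadd45a and Sema6a against Atf3 in CPM, both on log axes, with 1 point per library, colour for high-Atf3 or low-Atf3 and shape for NPP, Sham or Ctrl labels. High-Atf3 libraries carry NPP, Sham and Ctrl_solvent labels in every panel, with Npy at 29.1 CPM at the lowest Atf3 of the 7 and at 168 and 204 CPM at the highest 2.

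High-Atf3 libraries labelled NPP and high-Atf3 libraries with another label had overlapping ranges. The highest value lay in an NPP library for each of the 12 genes except Npy and Cldn4. The lowest value lay in a library with another label for each except Crisp3 and Cckbr. Npy was at 57.8 to 168 CPM in the 4 labelled NPP and at 29.1 to 204 CPM in the 3 labelled Sham_herb, Sham_solvent or Ctrl_solvent. Gal was at 26.2 to 74.7 CPM in the 4 and 15.3 to 34.2 CPM in the 3. Csrp3 was at 3.20 to 20.7 CPM and 3.20 to 6.87 CPM, Crisp3 at 1.17 to 14.3 CPM and 1.28 to 3.27 CPM, and Cldn4 at 1.42 to 5.49 CPM and 1.21 to 7.87 CPM. The ranges overlap for each of the 12 genes.

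Transcription factors and stress genes of the injury response lay mostly on the high side. Of the 25 tested members of this list 23 were higher in the median, where 50.4% of all genes tested were higher. Atf3, which made the division, and Gadd45a, one of the separated genes, are part of the 23 by construction. Only 4 of the 25, Atf3 and Gadd45a among them, were higher in at least 70 of the 77 pairs. Jun, the AP-1 subunit that partners Atf3, was at 99.8, 113 and 145 CPM in high-Atf3 libraries, against 69.0, 86.6 and 101 CPM in low-Atf3 libraries, and lay higher in 76 of the 77 pairs of a high-Atf3 and a low-Atf3 library. Sox11, a developmental factor re-expressed after injury, was at 1.10, 2.41 and 4.32 CPM in high-Atf3 libraries, against 0.384, 1.01 and 1.49 CPM in low-Atf3 libraries, and came out higher in 74 of the 77 pairs. Not every factor of the list followed. Stat3, a mediator of cytokine and retrograde injury signals, was at 191, 214 and 262 CPM in high-Atf3 libraries, against 148, 210 and 242 CPM in low-Atf3 libraries, and was higher in 39 of the 77 pairs. Klf6 and Smad1, both linked to axon growth, had differences of 0.18 and 0.20, and Atf5, Ddit3 and Hmox1, genes of the integrated and oxidative stress responses, had 0.04, 0.07 and -0.01.

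Among neuropeptides and their receptors, peptides besides Npy and Gal differed in how far they followed. Cck, Crh and Nmb were higher in 39, 38 and 34 of the 77 pairs, while Nts and Ucn, the last under 1 CPM, were higher in 62 and 71. Vip, the vasoactive intestinal peptide gene, was at 1.03, 7.0 and 16.6 CPM in high-Atf3 libraries, against 0.174, 0.318 and 1.43 CPM in low-Atf3 libraries. A single pair overlapped, since NPP_solvent replicate 2 at 1.03 CPM fell below NPP_solvent replicate 3 at 1.43 CPM. Adcyap1, the gene of the peptide PACAP, was at 92.5, 115 and 162 CPM in high-Atf3 libraries, against 61.7, 71.0 and 112 CPM in low-Atf3 libraries, where the highest value again belonged to NPP_solvent replicate 3. Galr2, a galanin receptor, overlapped throughout, at 7.80, 10.3 and 12.6 CPM in high-Atf3 libraries, against 7.98, 10.1 and 17.5 CPM in low-Atf3 libraries. The neuropeptide Y receptors Npy1r and Npy2r had differences of 0.18 and 0.07. Of the 17 tested members, 14 were higher in the median and 3 lower, where 50.4% of all genes tested were higher. Npy, Gal and Cckbr, all among the 21, are part of the 14.

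Axon growth genes split into those that followed Atf3 and those that did not. Flrt3, an adhesion protein, was at 22.2, 34.2 and 51.3 CPM in high-Atf3 libraries, against 15.1, 19.7 and 24.8 CPM in low-Atf3 libraries. Stmn4, a microtubule regulator, was at 38.7, 43.1 and 64.1 CPM in high-Atf3 libraries, against 23.9, 28.8 and 40.3 CPM in low-Atf3 libraries. Both overlapped by 1 or 2 high-Atf3 libraries only. Ecel1, an endopeptidase of injured neurons, was at 2.52, 6.60 and 11.1 CPM in high-Atf3 libraries, against 1.54, 2.48 and 5.27 CPM in low-Atf3 libraries. Tubb3, the neuronal tubulin, was at 3018, 3444 and 3894 CPM in high-Atf3 libraries, against 2804, 3380 and 3782 CPM in low-Atf3 libraries, and Nrn1, a neurite-promoting surface protein, lay lower, at 423, 440 and 466 CPM, against 429, 488 and 599 CPM. Of the 28 members of this list, 20 were higher in the median and 8 lower, where 50.4% of all genes tested were higher. Sprr1a and Gap43, both among the 21, are part of the 20.

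Secreted signals and channels linked to injury were more mixed. Csf1, through which injured neurons act on macrophages and microglia, was at 15.9, 22.2 and 47.6 CPM in high-Atf3 libraries, against 13.1, 14.6 and 35.2 CPM in low-Atf3 libraries, so 6 of the 7 high values fell inside the low range. The top of that range was Ctrl_solvent replicate 1 alone, and without it 2 of the 7 fell inside. Reg3b, a secreted lectin, was at 1.54, 3.75 and 15.4 CPM in high-Atf3 libraries, against 0.477, 0.928 and 95.4 CPM in low-Atf3 libraries. Its highest values were those of low-Atf3 libraries, 67.5 and 95.4 CPM in Ctrl replicates 2 and 3, the libraries without Y-linked reads. Gabra5, a subunit of the GABA-A receptor, was at 7.65, 13.1 and 22.6 CPM in high-Atf3 libraries, against 5.26, 7.2 and 8.85 CPM in low-Atf3 libraries. Gfra1, the co-receptor of the growth factor GDNF, was at 173, 246 and 285 CPM in high-Atf3 libraries, against 158, 193 and 210 CPM in low-Atf3 libraries. Cacna2d1, the calcium channel subunit that gabapentin binds, overlapped widely, at 2.85, 9.51 and 15.3 CPM in high-Atf3 libraries, against 2.0, 4.07 and 14.4 CPM in low-Atf3 libraries. Of 19 tested secreted signals 14 were higher in the median, Il24 among them, and of 15 channel genes 8 were, beside 50.4% of all genes tested.

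The 5 groups with libraries of both kinds allow the comparison inside a label. For Atf3, the mean of the high-Atf3 libraries minus that of the low-Atf3 libraries was 2.70 in NPP_herb, 1.97 in NPP_solvent, 2.23 in Sham_herb, 1.10 in Sham_solvent and 2.88 in Ctrl_solvent. For Npy it was 5.89, 4.49, 5.66, 3.21 and 6.44 in the same order, smallest in Sham_solvent for both genes. Vip followed with 4.31, 1.22, 1.41, 2.67 and 3.17. Jun had 0.35, 0.49, 0.46, 0.34 and 0.72, and Sox11 had 0.88, 0.12, 0.92, 0.77 and 1.64. A gene that separates all libraries is higher in all 5 groups by construction. Of the 104 tested members of the 5 injury lists, 27 (26.0%) were higher in all 5, against 3.69% of all genes tested. Of those members 5 were lower in all 5, against 2.93% of all genes. The lists hold Atf3 and other genes of the 21 and were chosen with results of these data known, so these counts describe the lists only. Over all genes these shares are 629 genes higher and 500 lower. Without the only high-Atf3 or low-Atf3 library of a group, 4 groups remained and the counts were 980 and 721 (NPP_herb replicate 3), 1108 and 819 (NPP_solvent replicate 3), 1193 and 849 (Sham_herb replicate 3), 1185 and 1201 (Sham_solvent replicate 3), or 1479 and 1624 (Ctrl_solvent replicate 3). The count of lower genes was 774 without Sham_solvent replicate 1 and 295 without Sham_solvent replicate 2.

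**Figure D4:**
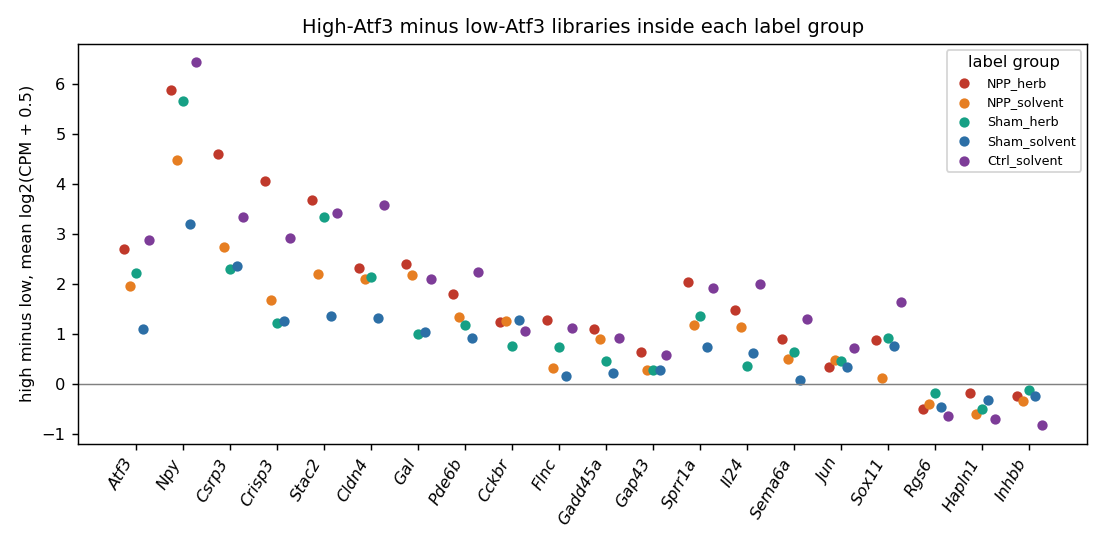
Mean log2(CPM + 0.5) of the high-Atf3 libraries minus that of the low-Atf3 libraries inside each of the 5 labelled groups that hold both, 1 dot per group, for the separated genes and for other named genes. Npy lies between 3.21 and 6.44 and Atf3 between 1.10 and 2.88, while Rgs6, Hapln1 and Inhbb lie below 0 in all 5 groups.

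No gene that was lower in the high-Atf3 libraries separated them on the CPM scale. Among genes with a mean of at least 1 CPM and a symbol, the 5 with the most pairs ordered that way were Rgs6, Hapln1, Inhbb, Kazn and Htr2c. Rgs6, a regulator of G protein signalling, was at 21.3, 24.3 and 28.0 CPM in high-Atf3 libraries, against 27.4, 33.3 and 41.1 CPM in low-Atf3 libraries. It was lower in 76 of the 77 pairs and in all of them after TMM scaling. Hapln1, a link protein of the hyaluronan matrix, was at 17.1, 25.9 and 28.3 CPM in high-Atf3 libraries, against 28.2, 32.5 and 41.5 CPM in low-Atf3 libraries. Inhbb, a subunit of activin and inhibin, was at 8.64, 11.4 and 13.5 CPM in high-Atf3 libraries, against 12.7, 16 and 23.1 CPM in low-Atf3 libraries. Htr2c, a serotonin receptor, was lower in 74 of the pairs at 0.982, 1.55 and 2.05 CPM in high-Atf3 libraries, against 1.61, 2.38 and 3.28 CPM in low-Atf3 libraries. In at least 70 of the 77 pairs the high-Atf3 library was higher for 75 genes (0.44% of those tested) and lower for 43 (0.252%).

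Potassium channels and large-diameter neuron genes were the neuronal lists that lay lowest. Of 25 potassium channel genes 21 were lower in the median, and 8 were lower in all 5 groups with both kinds of library. Over all 17043 genes tested, 8449 were lower in the median and 2.93% were lower in all 5 groups. The neuronal lists too were chosen with results of these data known, so their counts describe the lists only. Kcna2, an axonal channel that limits excitability, was at 221, 245 and 301 CPM in high-Atf3 libraries, against 215, 301 and 350 CPM in low-Atf3 libraries. All 7 high values lay inside the low range. Of 15 large-diameter neuron genes 13 were lower in the median. Scn8a, a sodium channel of myelinated axons, was at 113, 119 and 131 CPM in high-Atf3 libraries, against 109, 147 and 173 CPM in low-Atf3 libraries, and Nefh, the heavy neurofilament, at 6056, 7268 and 9173 CPM, against 7131, 8672 and 10502 CPM. Nociceptor genes had 19 of 25 members lower, with a median difference of -0.07, and pan-neuronal genes 9 of 13 with -0.06. The median differences were -0.13 for potassium channels and -0.20 for large-diameter neuron genes, beside 0.00 over all genes tested (0.0014).

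**Figure D5:**
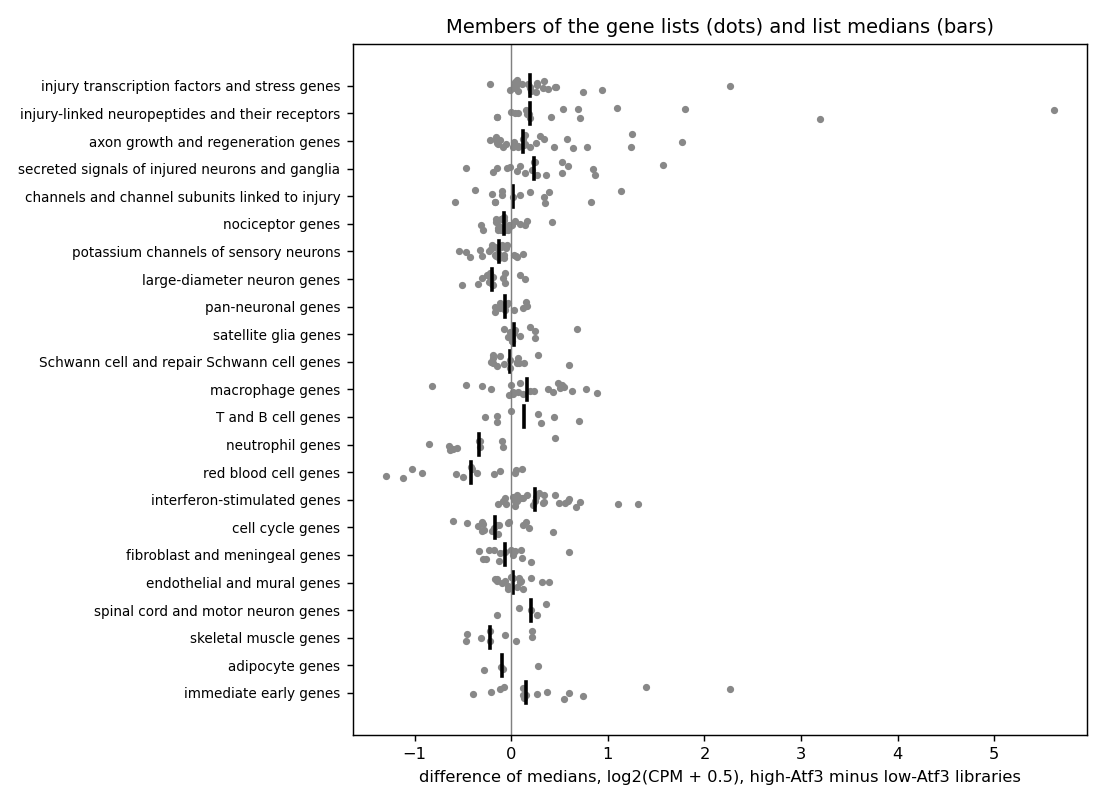
Difference of medians (log2(CPM + 0.5), high-Atf3 minus low-Atf3 libraries) for the tested members of each gene list except the Y-linked one, as dots, with the list median as a black bar. Npy at 5.62, Vip at 3.20 and Atf3 at 2.26 stand to the right, the 5 injury list medians lie between 0.02 and 0.24, and those of the potassium channel and large-diameter lists lie at -0.13 and -0.20. The interferon list has a higher median than any of these, 0.25. The red blood cell, neutrophil and skeletal muscle lists have lower medians, at -0.41, -0.34 and -0.22.

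Summed markers of other cells in and near the ganglion had ranges that overlapped between the 2 kinds of library. The ranges were wide for the macrophage, interferon, neutrophil and red blood cell lists. Of the 17043 genes tested 0.123% separated the libraries, so the absence of a separated gene from lists of this size is no result about them, and none was found among the glia, Schwann cell, macrophage, lymphocyte, neutrophil, red blood cell, interferon, cell cycle, fibroblast, vessel, spinal cord, muscle and adipocyte lists. Over all genes tested, 50.4% were higher in the median. These lists were also chosen with results of these data known, so their counts describe the lists only. Macrophage genes, 16 of 22 higher in the median, summed to 576 to 1673 CPM in high-Atf3 libraries and 457 to 1644 CPM in low-Atf3 libraries. Interferon-stimulated genes, 24 of 28 higher, summed to 691 to 3477 CPM and 570 to 4180 CPM, and Isg15, an interferon-induced ubiquitin-like protein, was at 4.84 to 123 CPM in high-Atf3 libraries, against 2.04 to 207 CPM in low-Atf3 libraries. Neutrophil genes, 10 of 11 lower, summed to 53.7 to 174 CPM in high-Atf3 libraries and 37.8 to 413 CPM in low-Atf3 libraries. Red blood cell genes, 11 of 14 lower, summed to 54.8 to 875 CPM and 63.6 to 850 CPM. T and B cell genes summed to 16.6 to 77.7 CPM and 13.8 to 69.1 CPM, cell cycle genes to 64.8 to 136 CPM and 62.2 to 127 CPM, fibroblast genes to 1632 to 2599 CPM and 1296 to 3189 CPM, and endothelial and mural genes to 330 to 450 CPM and 305 to 419 CPM, high-Atf3 libraries first in each pair. Immediate early genes, Atf3 among them, had 11 of 15 members higher, with a median difference of 0.16. Satellite glia genes had a median difference of 0.02 (10 of 13 higher) and Schwann cell genes one of -0.01 (7 of 16 higher). Spinal cord and motor neuron markers summed to 12.3 to 19.8 CPM in high-Atf3 libraries and 5.76 to 20.8 CPM in low-Atf3 libraries, skeletal muscle markers to 11.8 to 29.3 CPM and 12.7 to 24.4 CPM, adipocyte markers to 5.99 to 12.8 CPM and 7.16 to 13.5 CPM, and no marker of these lists that the count table holds was at 0 in every library. The part of these cells in the separated genes was not tested.

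The question whether the pain model changed the ganglia was asked by comparing the NPP with the Sham groups, over both treatments, with edgeR's quasi-likelihood test over 17043 genes, in which 0 genes passed (0%), 432 had an unadjusted p under 0.05 and DESeq2 also called 0 (483 with an unadjusted p under 0.05). Both sides of this comparison hold both kinds of library, with 4 of 6 NPP and 2 of 6 Sham libraries high-Atf3, so if libraries numbered 3 carry exchanged labels, the count of 0 does not compare the model with its sham. Of the 21 separated genes 20 had a higher mean in NPP, beside 49.4% of all genes, with a median log2 fold change of 1.60 beside -0.0021 over all genes. However, 4 of the 7 high-Atf3 libraries that chose these genes are NPP libraries, so this direction is not independent. Atf3 had a log2 fold change of 1.20 ± 0.71 (SE, edgeR adjusted p = 0.998), Npy one of 1.71 ± 1.46 (edgeR adjusted p = 0.998) and Gal one of 1.36 ± 0.60 (edgeR adjusted p = 0.998).

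The comparison of herb with solvent, over NPP and Sham, called 0 genes (0%) with edgeR, and 875 had an unadjusted p under 0.05. DESeq2 called 2 genes, Cartpt and LOC120102207, which are not among the 21. Of the 21 separated genes 18 had a higher mean with herb, beside 49.9% of all genes, with a median log2 fold change of 0.37. The 21 were chosen for 1 shared pattern, so they do not count as separate observations in either comparison. Atf3 had a log2 fold change of 0.37 ± 0.70, Npy one of 1.05 ± 1.44 and Gal one of -0.15 ± 0.60 (edgeR adjusted p = 0.898, 0.855 and 0.952), each smaller than its SE.

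Without the replicate 3 libraries, an alternative chosen after their Atf3 had been seen, 1 gene of 17023 passed in the comparison of NPP with Sham (0.00587%). That gene was Npy. All 4 NPP libraries kept are high-Atf3 and all 4 Sham libraries kept are low-Atf3, so this comparison is the division by Atf3 itself. The count is therefore no test of the pain model, and the values are given as a description with no SE or p-value. The log2 fold change was 5.56 for Npy, 4.12 for Stac2, 5.78 for Sprr1a and 2.49 for Atf3, the gene that made the division.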

How the data were processed

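Raw read counts of 25678 genes, 1 column per library and not normalized, were deposited by the authors. A deposited FPKM table, scaled by the authors to gene length and library size, covers 25557 of them. The submitters' processing notes name HISAT2, DESeq2 and the build mRatBN7.2. No source used here names the read counter, strand setting or annotation.

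CPM used the column sum, and differences used log2(CPM + 0.5). Genes were kept by filterByExpr of edgeR (17043 kept; the rest held at most 0.0495% of any library's reads). Labelled groups were compared with edgeR 4.0.16 in R 4.3.3 (TMM, robust quasi-likelihood test, 1 coefficient per group, 12 residual degrees of freedom), Benjamini-Hochberg adjusted over all genes, threshold 0.05. Alternatives used DESeq2 1.42.0 and, on log2(FPKM + 0.1), limma 3.58.1. The fit and the separation count were tested on simulated data.

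Named genes were those whose libraries did not overlap, with a mean of at least 1 CPM and no placeholder symbol (up to 15 higher and 10 lower, lower ones filled to 5 by ordered pairs), the 5 most like Atf3 and the 5 injury lists. Sprr1a, Il24, Hpd and Lce1f, under 1 CPM, Draxin, Isg15 and examples from the other lists were named after their values were seen. The members, the 24 lists and the tests were chosen with earlier results of these data known.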

Additional observations from a re-analysis of the deposited data

How the results depend on the processing

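The 21 separated genes were 20 with TMM-scaled CPM (19 shared, without Gap43 and LOC120094379 and with Draxin) and 21 with FPKM, without the low-count filter or with a pseudocount of 1. TMM scaling added 1 lower gene, Rgs6. Leaving out each library in turn gave 21 to 35 higher and 0 to 8 lower separated genes. Genes with 1 sign inside every mixed group numbered 629 higher and 500 lower, and 504 to 1479 and 295 to 1624 with a library left out, a range that includes cases in which only 4 mixed groups remained. Without replicate 3 of every group, 52 genes were higher and 30 lower, and no group held both kinds, so that count has no value. The median differences of named genes were recomputed for each gene under each alternative, and 454 were counted as the same and 2 as moved. Those 2 were Ptprh, from 1.76 to 0.84 with FPKM, and Csrp3, from 3.48 to 4.43 without replicate 3.

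NPP against Sham called 0 genes with RLE size factors, without the low-count filter, with DESeq2, with limma on FPKM and without any single library, with 286 (without Sham_herb replicate 1) to 1557 (without Sham_solvent replicate 2) genes at an unadjusted p under 0.05 when a library was left out. It called 1 without replicate 3, where the comparison is the division by Atf3 itself. Herb against solvent called 0 except with DESeq2, which called 2, and 514 (without NPP_solvent replicate 2) to 2666 (without Sham_solvent replicate 2) genes had an unadjusted p under 0.05 when a library was left out. The causes were not tested. With a replicate block both comparisons called 0, with 404 and 838 genes at an unadjusted p under 0.05 against 432 and 875 without it. Same-numbered NPP and Sham libraries share only a number: their deviations from the group means correlated across genes at -0.28 to 0.11 over 6 pairs, and 1 of 6 NPP libraries correlated best with its own number. Depth limits Sprr1a, Il24, Hpd and Lce1f, at under 60 reads per library.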
